A study of Mus musculus with 7 samples.

Results

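The proteasome subunit genes were the protein-coding genes of the GENCODE M21 mouse annotation whose symbol begins with Psm, followed by a letter from a to g and a digit. The symbols gave 50 genes of 21951 protein-coding genes. For each gene, accessible regions within 200 bp of an annotated transcription start site (TSS) were taken from the deposited ATAC-seq table, which held 55680 regions, 15422 of them at the start of some gene. A total of 47 genes had such a region, 50 regions in all, since Psmd5, Psmd9 and Psmd13 had 2 each. Each gene was then represented by its region with the highest mean signal. The other 3 genes had none: Psma8, a core subunit used in the testis, Psmb11, a core subunit of the thymic cortex, and Psme2b, named after the activator gene Psme2. The region nearest to them lay 20516 bp, 2961 bp and 42700 bp away, respectively. The symbol rule also took in Psmc3ip, which encodes a meiotic recombination factor and is not a proteasome subunit. It counts among the 47, and its own values are given separately.

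ATAC-seq measures how easily a transposase enters chromatin, so that reads pile up at open promoters and enhancers. Whole liver tissue of C57BL/6N mice was compared between 3 libraries from young animals, 3 months old, and 4 libraries from aged animals, 18 months old. No treatment and no engineered allele is listed for either group. The submitters' notes state that the aged libraries came from 3 animals, with separate lobules of 1 liver used as separate replicates, without saying which libraries share the animal, whereas the study's methods count 4 aged replicates. P-values over the 7 libraries therefore treat the aged libraries as independent. Totals ranged from 4474652 to 25461110 reads in regions per library, and the 47 regions representing a gene together held 8589 to 46413 reads per library. Marker promoters open in hepatocytes were present for 8 of 8 genes on a list that included Alb, Ttr and Hnf4a, which are defining genes of the labelled tissue. In bulk tissue, fewer cells of a type and less accessibility per cell cannot be told apart.

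The proteasome is the main protease of the cytosol and nucleus. A barrel-shaped core of alpha and beta rings cuts proteins tagged with ubiquitin, and a cap of ATPases and other subunits recognises, unfolds and feeds them in. In cells exposed to interferon, the inducible subunits Psmb8, Psmb9 and Psmb10 replace the constitutive catalytic subunits Psmb5, Psmb6 and Psmb7 and form the immunoproteasome, which is known for producing peptides for antigen presentation. When proteasome activity is short, the transcription factor encoded by Nfe2l1 switches on subunit genes through antioxidant response elements in their promoters.

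Sequences are shown for 6 promoters of core, immunoproteasome and cap genes, none of which was called at the main settings. They are RefSeq windows of 300 bases on build GRCm38.p6, from 250 bases before to 50 bases after the start, written from 5′ to 3′ on the gene's strand. Capitals mark matches, on either strand, to the antioxidant response element (TGACNNNGC), the interferon-stimulated response element (GAAA, any 2 bases, GAAA), the interferon-gamma activated site (TTCNNNGAA), a NF-kappa-B site (GGG, any 2 bases, TTTCC) or an ETS site (CCGGAAG).
Psmb5 promoter, chr14:54617946-54618245, minus strand: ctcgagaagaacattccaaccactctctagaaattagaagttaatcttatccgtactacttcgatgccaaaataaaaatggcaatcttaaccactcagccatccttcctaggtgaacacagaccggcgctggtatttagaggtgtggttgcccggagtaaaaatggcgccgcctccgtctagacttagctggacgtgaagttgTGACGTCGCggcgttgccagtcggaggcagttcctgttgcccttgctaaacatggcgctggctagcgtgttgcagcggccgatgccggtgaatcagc
Psmb6 promoter, chr11:70525107-70525406, plus strand: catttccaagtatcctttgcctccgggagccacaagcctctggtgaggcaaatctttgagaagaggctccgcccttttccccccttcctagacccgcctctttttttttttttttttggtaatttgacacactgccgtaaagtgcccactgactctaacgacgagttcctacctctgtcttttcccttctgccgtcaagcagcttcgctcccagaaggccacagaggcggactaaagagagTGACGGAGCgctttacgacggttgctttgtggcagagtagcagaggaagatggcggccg
Psmb8 promoter, chr17:34197945-34198244, plus strand: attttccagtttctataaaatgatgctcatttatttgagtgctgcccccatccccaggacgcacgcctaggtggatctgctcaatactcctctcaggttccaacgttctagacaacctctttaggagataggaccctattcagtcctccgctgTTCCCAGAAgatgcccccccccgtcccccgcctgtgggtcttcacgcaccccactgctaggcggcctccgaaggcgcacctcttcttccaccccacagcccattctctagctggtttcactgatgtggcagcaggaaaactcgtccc
Psmb9 promoter, chr17:34187281-34187580, minus strand: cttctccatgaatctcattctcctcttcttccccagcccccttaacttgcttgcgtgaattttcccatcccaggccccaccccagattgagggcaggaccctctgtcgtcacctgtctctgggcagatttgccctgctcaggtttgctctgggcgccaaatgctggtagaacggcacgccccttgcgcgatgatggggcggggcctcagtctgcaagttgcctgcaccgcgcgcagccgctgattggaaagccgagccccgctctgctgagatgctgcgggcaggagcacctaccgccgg
Psmd2 promoter, chr16:20651402-20651701, plus strand: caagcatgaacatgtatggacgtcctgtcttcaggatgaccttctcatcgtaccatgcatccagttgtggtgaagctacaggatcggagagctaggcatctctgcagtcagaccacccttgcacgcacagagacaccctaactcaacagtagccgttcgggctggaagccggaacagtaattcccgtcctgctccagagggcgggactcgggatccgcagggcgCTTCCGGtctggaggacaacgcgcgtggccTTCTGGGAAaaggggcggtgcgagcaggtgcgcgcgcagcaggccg
Psmd4 promoter, chr3:95042565-95042864, minus strand: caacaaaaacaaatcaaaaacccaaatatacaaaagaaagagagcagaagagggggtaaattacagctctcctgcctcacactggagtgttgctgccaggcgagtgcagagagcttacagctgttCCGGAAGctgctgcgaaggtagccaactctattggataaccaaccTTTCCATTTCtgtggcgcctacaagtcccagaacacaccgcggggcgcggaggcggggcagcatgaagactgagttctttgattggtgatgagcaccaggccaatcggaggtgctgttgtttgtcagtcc

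Psmb5 and Psmb6, constitutive catalytic subunits, each carried an antioxidant response element, whose first base lay 47 bases and 9 bases before the start, respectively. Psmb7, also a constitutive catalytic subunit, is not shown. Psmb8 carried an interferon-gamma activated site, 97 bases before the start, and Psmb9 held none of the motifs marked in capitals. Psmb10 is not shown because only 70 of the 300 bases of its window lay in its accessible region. Of the 50 genes, 42 had a window in the table, and 40 had a window overlapping an accessible region, 42 windows in all. Shares are given per window, over these 42 and over all 14153 windows overlapping an accessible region. The antioxidant response element was found in 6 of the 42 windows, 14.3%, against 14.6%. By class, it was found at 2 of 11 constitutive core, 0 of 3 immunoproteasome and 2 of 14 cap genes. The interferon-stimulated response element was found at 5 genes, Psmb3, Psmd4, Psmd9, Psme1 and Psmg4, and at 0 of the 3 immunoproteasome genes. That is 11.9% of the windows, against 2.79%. The interferon-gamma activated site was found in 3 windows, 7.14%, against 6.95%. The ETS site, bound by a large family of transcription factors, was found in 16 windows of 15 genes, Psmc3ip among them, 38.1%, against 17.1%. By class, it was found at 9 of 14 cap genes, at 1 of 11 constitutive core genes and at 0 of 3 immunoproteasome genes. In Psmd2 and Psmd4 it lay 26 and 125 bases before the start. The GC box (GGGCGG) was found in 57.1% of the windows, against 62.8%, the CCAAT box (CCAAT) in 31.0% against 37.6%, and the YY1 site (AAGATGG) in 16.7% against 6.82%. The NF-kappa-B site was found in 0 of the 42 windows, against 1.65%. These matches describe letters in a window and were not tested for binding.

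Proteasome promoters were open in both age groups. Per kilobase of region, mean accessibility over the 7 libraries ranged from 10.8 CPM (read counts scaled to library size) at Psmf1 to 73.4 CPM at Psme2, with a median of 26.0 CPM, compared with 20.9 CPM for all promoter regions and 10.8 CPM for all regions. The least accessible of the 47 stood at percentile 24.2 of the promoter regions. Regions were 513 to 3694 bp wide, with a median GC content of 55.8%, against 57.2% for promoter regions in general. In 13 of the 47 genes, the same region also covered the start of another protein-coding gene, as at Psmb9 with Tap1, Psmb1 with Tbp, Psme2 with Rnf31 and Psmd13 with Sirt3, so a change there cannot be assigned to either gene. None of the 50 regions had a near-identical copy elsewhere on the chromosomes of the reference.

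**Figure D1:**
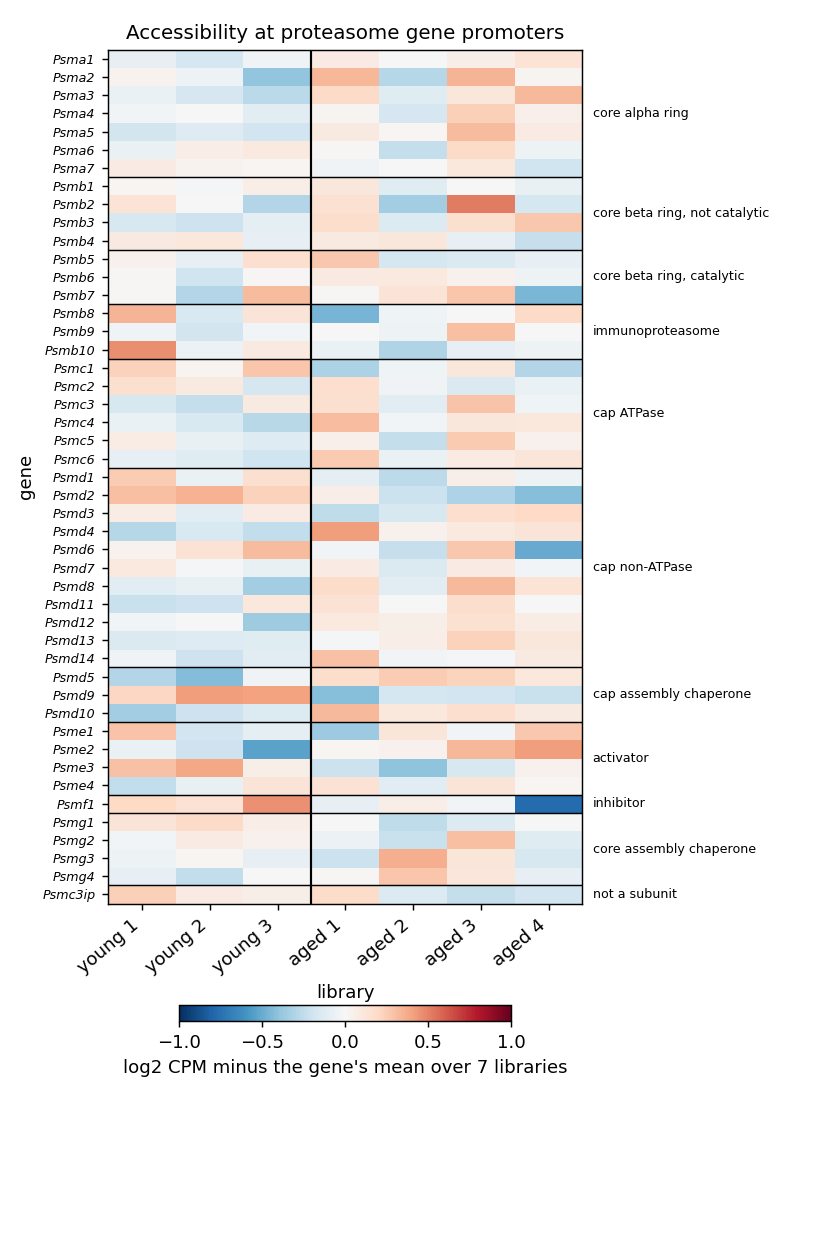
Accessibility of 47 genes (rows, grouped by role) in the 7 libraries (columns), as log2 CPM minus the gene's mean over all libraries. Psmd9 lies above its mean in all 3 young and below it in all 4 aged libraries, and Psmd5 shows every aged library above every young one.

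Accessibility with age was compared by edgeR's quasi-likelihood test over all 55680 regions, with Benjamini-Hochberg adjustment and a threshold of 0.05. Among the 47 genes, 1 rose and 1 fell. Of all promoter regions 4.48% rose and 2.06% fell, and of all regions 5.74% changed in either direction. The region of Psmd5 rose and that of Psmd9 fell. Both genes encode chaperones that help assemble the ATPase ring of the cap, and in both the region lay at the start of a non-coding transcript rather than at the coding start. No region at the coding start of a proteasome gene passed the test in either direction, while the Psmd5 region also covers the start of the protein-coding gene Cutal. The log2 fold change was above 0 in 25 genes and below 0 in 22, with a median of 0.08, compared with 0.09 over all promoter regions, of which 61.1% were above 0. Without Psmc3ip, 25 were above 0 and 21 below, with a median of 0.08. Every aged library lay above every young one in 11 genes, 23.4%, and below in 5 genes, 10.6%. The shares over all promoter regions were 20.4% and 8.88%. At an unadjusted p of less than 0.05, 10 genes, 21.3%, were higher and 5 genes, 10.6%, lower in aged liver, against 23.0% and 9.13% of promoter regions.

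**Figure D2:**
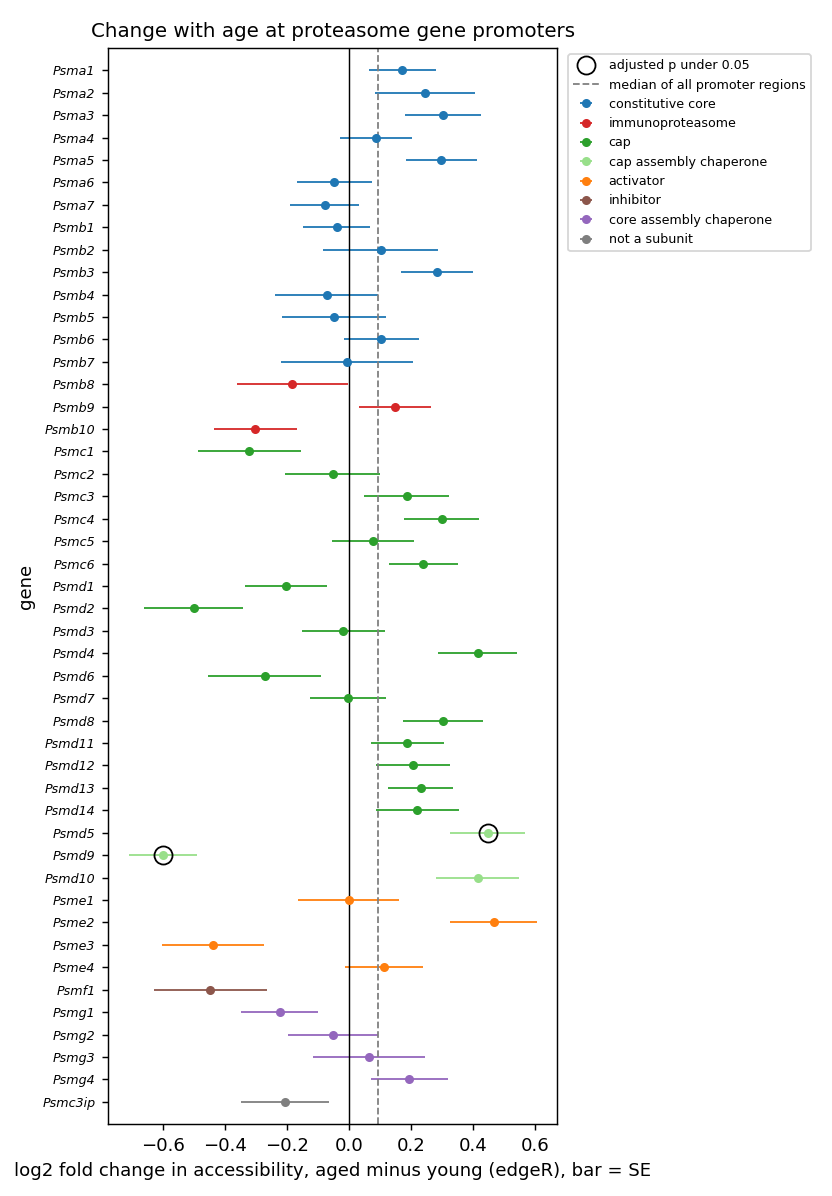
Log2 fold change in accessibility (aged minus young, edgeR) with its standard error for each of the 47 genes, coloured by class. Circles mark Psmd5 at 0.45 and Psmd9 at -0.60, and the dashed line is the median of all promoter regions, 0.09.

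The constitutive core comprises the alpha ring, Psma1 to Psma7, which gates entry to the barrel, and the beta ring, Psmb1 to Psmb7. Of its 14 genes 0 were called in either direction. With offsets fitted on GC content, Psma5 and Psmb3 passed (adjusted p = 0.0391 and 0.0479), whereas with offsets fitted on mean abundance Psmb3 had a log2 fold change of 0.00455. Log2 fold changes of the 14 genes ran from -0.08 to 0.30 with a median of 0.09, 8 above 0 and 6 below. The median turned below 0 with library totals and with offsets fitted on mean abundance. Every aged library exceeded every young one at 2 genes, Psma1 and Psma5, 14.3% against 20.4% of promoter regions. The alpha ring had a median of 0.17, with 5 of 7 genes above 0. At its upper end, Psma3 (chr12:70974282-70975476) measured 49.4, 46.2 and 43.1 CPM in the young and 59.2, 47.7, 56.3 and 64.9 CPM in the aged libraries. The groups overlapped through the second aged library, and the log2 fold change was 0.30 ± 0.12 (SE, adjusted p = 0.144). At its lower end, Psma7 (chr2:180041687-180043400) measured 52.2, 50.3 and 49.8 CPM in young and 48.1, 49.0, 53.0 and 42.9 CPM in aged liver, with a log2 fold change of -0.08 ± 0.11 (SE, adjusted p = 0.705). Its region also covers the start of Ss18l1.

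In the beta ring, the 4 subunits without catalytic activity had a median log2 fold change of 0.03. Psmb3 (chr11:97702391-97703821) had the strongest region of the core per kilobase, 50.9 CPM. It measured 64.6, 62.7 and 67.4 CPM in young and 81.8, 65.7, 80.8 and 87.1 CPM in aged libraries, and 3 of the 4 aged values exceeded the young range (log2 fold change 0.28 ± 0.12 SE, adjusted p = 0.149). Psmb4 (chr3:94886257-94887349) measured 14.5, 14.7 and 12.8 CPM in young and 14.5, 14.7, 12.8 and 11.6 CPM in aged libraries, with a log2 fold change of -0.07 ± 0.17 (SE, adjusted p = 0.831). Among the 3 catalytic subunits, Psmb5 (chr14:54617255-54618472), which carries the chymotrypsin-like activity, measured 16.3, 14.9 and 17.8 CPM in young and 19.1, 13.9, 14.2 and 14.9 CPM in aged liver. Its highest and its lowest value were both in aged libraries, and the log2 fold change was -0.05 ± 0.17 (SE, adjusted p = 0.895). Psmb6 (chr11:70524716-70525748), with caspase-like activity, measured 31.1, 26.9 and 31.1 CPM and 32.8, 32.9, 31.7 and 29.8 CPM (log2 fold change 0.10 ± 0.12 SE, adjusted p = 0.633). Psmb7 (chr2:38643346-38644352), with trypsin-like activity, measured 12.8, 10.3 and 15.8 CPM and 12.7, 13.9, 15.4 and 9.16 CPM (log2 fold change -0.01 ± 0.21 SE, adjusted p = 0.989). The age groups overlapped at all 3.

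None of the 3 immunoproteasome genes was called, and at none were the age groups separate. Their median log2 fold change was -0.18, the value of Psmb8, which ran from -0.316 to -0.0441 over the 19 alternative fits. Psmb8 (chr17:34197401-34198664), the counterpart of Psmb5, measured 26.9, 19.0 and 23.2 CPM in young and 15.3, 20.6, 21.2 and 24.2 CPM in aged libraries. The first aged library was the lowest of the 7, and the log2 fold change was -0.18 ± 0.18 (SE, adjusted p = 0.566). Psmb9 (chr17:34186593-34188446), the counterpart of Psmb6, shares its region with Tap1, a peptide transporter gene. It measured 62.5, 56.8 and 63.3 CPM in young and 64.7, 62.2, 79.4 and 64.1 CPM in aged liver, where the third library stood above the rest (log2 fold change 0.15 ± 0.12 SE, adjusted p = 0.453). Psmb10 (chr8:105936671-105938412), the counterpart of Psmb7, measured 73.5, 51.2 and 56.7 CPM in young and 50.8, 43.1, 50.2 and 51.4 CPM in aged liver. Its region lies within the gene, 32 bp from the principal start, and also overlaps Gm16156. The first young library was the highest of the 7, and the log2 fold change was -0.30 ± 0.13 (SE, adjusted p = 0.180). Without young replicate 1 the log2 fold change of Psmb10 was -0.131, and with offsets fitted on mean abundance it was -0.531 and passed the test (adjusted p = 0.0470). Per kilobase, Psmb10 and Psmb9 had 30.9 and 34.9 CPM, Psmb6 had 29.9 CPM, Psmb8 had 17.0 CPM, and Psmb5 and Psmb7 had 13.03 and 12.8 CPM.

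To compare each inducible subunit with its constitutive counterpart, the difference of their log2 CPM was taken within each library and compared between ages by a two-sided exact permutation test over 35 splits, which cannot give a p below 0.0571. Psmb8 minus Psmb5 averaged 0.48 in young (SD 0.205, n = 3) and 0.38 in aged libraries (SD 0.465, n = 4) (exact p = 0.971). Psmb9 minus Psmb6 was 1.03 ± 0.04 and 1.08 ± 0.18 (exact p = 0.857), and Psmb10 minus Psmb7 was 2.211 ± 0.34 and 1.94 ± 0.38 (exact p = 0.400). Adjusted over the 3 pairs, each p was 0.971. The design could not have reached a p under 0.05 in this test, so it does not bear on whether the balance changed.

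**Figure D3:**
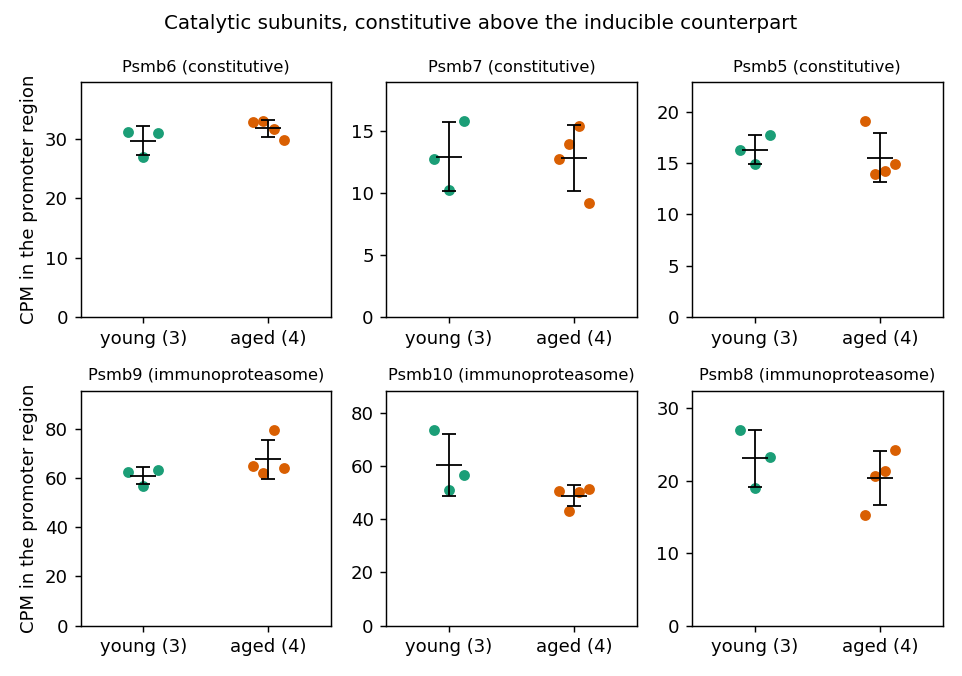
CPM in the promoter region of the constitutive catalytic subunits (upper row) and of their immunoproteasome counterparts (lower row) in 3 young and 4 aged libraries, with mean and SD. Axes start at 0, and young and aged points overlap in all 6 panels.

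Immune cells use the immunoproteasome strongly, so their markers were measured in the same libraries. Of the promoters of 8 Kupffer cell and macrophage markers only that of Clec4f had a region, at 2.22 to 2.65 CPM in young and 0.588 to 2.80 CPM in aged libraries. Of 6 T and NK cell markers only Lck had one, at 10.6 to 12.8 CPM and 10.7 to 13.6 CPM, and of 4 B cell markers none had one. Ptprc, Cd3e, Adgre1 and Cd79a were among the defining markers without a region. Summed marker promoters of hepatocytes measured 597.7 to 672 CPM in young and 709.2 to 853.7 CPM in aged libraries, those of endothelial cells 67.4 to 75.0 CPM and 53.2 to 89.0 CPM (4 of 5 with a region, Pecam1 without), those of stellate cells 22.7 to 26.6 CPM and 13.5 to 20.7 CPM (3 of 5, Pdgfrb and Des without), and those of cholangiocytes 41.7 to 49.5 CPM and 36.7 to 54.3 CPM (2 of 4, Krt19 and Krt7 without). Of the hepatocyte markers, Apoa1 rose (adjusted p = 0.0331), a call lost in 9 of 19 alternative fits, among them those without young replicate 1, 2 or 3 or aged replicate 1 or 3 (adjusted p 0.0569 to 0.122) and that with offsets fitted on mean abundance (log2 fold change 0.0737, adjusted p = 0.779). Tat and Serpina1e of the same list stood at log2 fold changes of -0.02 (adjusted p = 0.946) and -0.63 (adjusted p = 0.249), and Apoa1, at 186.9 CPM in young and 270.7 CPM in aged libraries on average, weighs most in the sum. The endothelial sum is mostly Stab2 (42.6 CPM in young, log2 fold change 0.05), while Kdr, Clec4g and Cdh5 stood at -0.35, -0.20 and -0.44. Sox9 (42.7 CPM in young, log2 fold change -0.05) makes up most of the cholangiocyte sum, and Epcam stood at -0.77 (adjusted p = 0.116) with all aged libraries below all young ones. The 3 stellate markers were all below 0 (median -0.52), and the lowest adjusted p among these markers was that of Reln, 0.0586. The part of cell composition in the values of the proteasome genes was not tested.

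The cap consists of 6 ATPases, Psmc1 to Psmc6, that unfold substrates, and of 11 further subunits that bind ubiquitin, remove it or hold the cap together. Of the 17 genes 0 were called. Psmd4 passed with DESeq2 and with GC offsets (adjusted p = 0.0414 and 0.0243), as did Psmd2 with library totals (adjusted p = 0.0417). Over the 19 alternative fits, Psmd4 went as low as 0.26, with adjusted p up to 0.322, and Psmd2 had an adjusted p up to 0.203. The median log2 fold change of the 17 genes was 0.19, and -0.0662 under the abundance offsets. At the main scaling 10 lay above 0 and 7 below, and every aged library exceeded every young one at 6 genes, Psmc4, Psmc6, Psmd4, Psmd12, Psmd13 and Psmd14, 35.3% against the 20.4% of promoter regions. At 1 gene, Psmd2, every aged library was lower, 5.88% against 8.88% of promoter regions. The ATPases had a median of 0.13. Psmc4 (chr7:28049634-28050462) was highest among them, with 36.9, 34.9 and 31.9 CPM in young and 48.1, 38.0, 42.0 and 41.7 CPM in aged libraries (log2 fold change 0.30 ± 0.12 SE, adjusted p = 0.143). Psmc1 (chr12:100109946-100111127) was lowest, with 18.8, 16.3 and 19.4 CPM and 12.7, 15.5, 17.3 and 12.98 CPM, and the groups overlapped (log2 fold change -0.32 ± 0.17 SE, adjusted p = 0.252).

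The other cap subunits spanned a wider range, with a median of 0.19. Psmd4 (chr3:95041812-95043157), a receptor for ubiquitin chains, measured 28.2, 31.0 and 29.1 CPM in young and 46.2, 35.5, 36.9 and 37.8 CPM in aged liver. The groups did not overlap, but the log2 fold change of 0.41 ± 0.13 (SE) missed the threshold (adjusted p = 0.0671). Psmd2 (chr16:20651246-20652536), a scaffold subunit that docks ubiquitin shuttles, lay at the opposite end with 20.8, 21.5 and 19.7 CPM in young and 17.7, 14.5, 13.5 and 12.5 CPM in aged liver, again without overlap (log2 fold change -0.50 ± 0.16 SE, adjusted p = 0.0753). Psmd4 and Psmd2 were named as the highest and the lowest of these subunits.

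The cap has 3 assembly chaperones, Psmd5, Psmd9 and Psmd10. All aged libraries lay above all young ones at 2 of them and below at 1, against 20.4% and 8.88% of promoter regions, and the regions of Psmd5 and Psmd10 are shared with the start of another gene. At Psmd5 the region represented (chr2:34873980-34875339) measured 37.5, 34.0 and 44.7 CPM in young and 52.0, 54.9, 53.7 and 49.4 CPM in aged libraries, 38.7 ± 5.46 (SD, n = 3) against 52.5 ± 2.397 (SD, n = 4). All aged values were above all young ones, and the log2 fold change was 0.45 ± 0.12 (SE, adjusted p = 0.0446). This region lies 3018 bp upstream of the principal start of Psmd5, at the start of a transcript annotated as non-coding, and also covers the start of Cutal. At the principal start itself (chr2:34870705-34871410), accessibility was 30.7, 28.8 and 24.7 CPM in young and 32.2, 26.9, 29.6 and 32.3 CPM in aged libraries, which overlapped (log2 fold change 0.11 ± 0.13 SE, adjusted p = 0.652). The call at Psmd5 was lost without young replicate 1 (adjusted p = 0.143), young replicate 2 (0.178) or aged replicate 1 (0.104), 2 (0.0686) or 3 (0.114). Summing a pair of aged libraries, as for a shared animal, ended it for 5 of the 6 pairs (adjusted p 0.0503 to 0.0985), and it was also lost with library totals (0.119) and with offsets fitted on mean abundance (0.350).

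At Psmd9 the region with the most reads (chr5:123168752-123172445) measured 116, 134 and 133 CPM in young and 74.7, 88.8, 88.0 and 85.9 CPM in aged libraries, 128 ± 10.2 (SD, n = 3) against 84.4 ± 6.57 (SD, n = 4). No value of one group reached the other, and accessibility fell by 0.60 on the log2 scale (SE 0.11, adjusted p = 0.0129). The region lies 55745 bp upstream of the principal start, at the start of a processed transcript that runs through the neighbouring gene, and it overlaps the end of Hpd, a tyrosine-breakdown gene transcribed from the opposite strand, and the long non-coding RNA gene Gm26745. At the principal start (chr5:123226433-123228797), accessibility was 40.6, 40.4 and 40.3 CPM in young and 28.0, 32.0, 31.7 and 37.5 CPM in aged libraries. Every aged value was lower there as well, but the log2 fold change of -0.33 ± 0.12 (SE) did not pass the test (adjusted p = 0.123), though it did with library totals (-0.446, adjusted p = 0.0411). The call at the upstream region was lost without young replicate 2 (adjusted p = 0.0633) or aged replicate 1 (adjusted p = 0.0544).

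**Figure D4:**
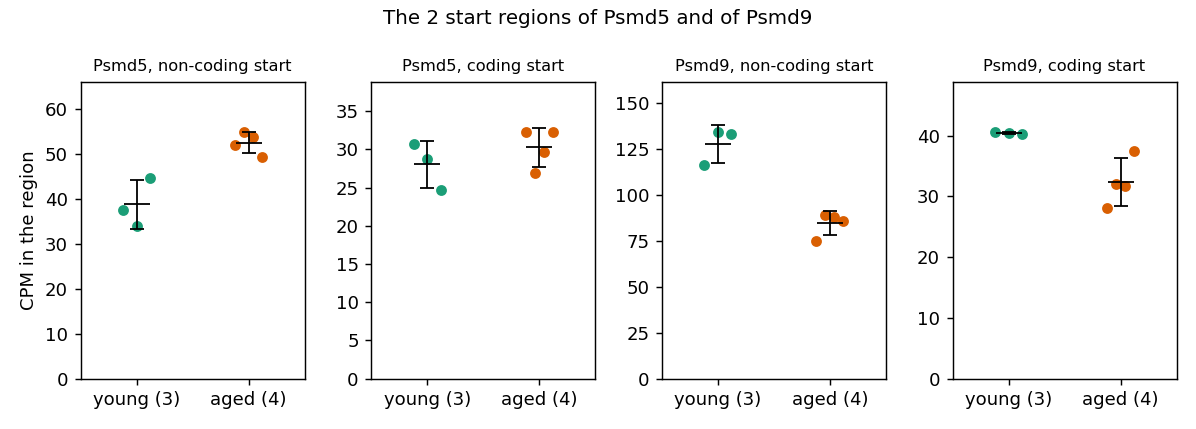
CPM at the non-coding and the coding start region of Psmd5 and of Psmd9 in 3 young and 4 aged libraries, with mean and SD and axes from 0. Age groups are apart at both non-coding starts and at the coding start of Psmd9, and overlap at the coding start of Psmd5.

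Psmd10 (chrX:140956365-140957310), whose region is shared with the autophagy gene Atg4a, measured 18.8, 20.7 and 21.9 CPM in young and 30.1, 25.9, 27.1 and 25.6 CPM in aged libraries. The groups did not overlap, and the log2 fold change was 0.42 ± 0.13 (SE, adjusted p = 0.0776). It was named after its values were seen, to complete the 3 chaperones.

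Activators bind the core in place of the cap. Psme1 and Psme2 encode an interferon-inducible ring, and at 4 of the 5 activator genes a region was present. Psme2 (chr14:55590673-55592308), shared with the ubiquitin ligase gene Rnf31, was the most accessible region of all 47 per kilobase. It measured 112, 102 and 81.2 CPM in young and 119, 121, 148 and 158 CPM in aged libraries, without overlap, and had the highest log2 fold change of the genes, 0.47 ± 0.14 (SE, adjusted p = 0.0629). With offsets fitted on mean abundance it was 0.119 (adjusted p = 0.596). Its partner Psme1 stood at a log2 fold change of -0.001 (adjusted p = 0.998). Psme3 (chr11:101315646-101316838), which encodes a nuclear activator, measured 19.3, 20.5 and 16.3 CPM in young and 13.4, 11.8, 14.01 and 16.2 CPM in aged liver. All aged values were lower, by a narrow margin, and the log2 fold change was -0.44 ± 0.16 (SE, adjusted p = 0.120). Psme4, the remaining activator, stood at 0.11 on the same scale (adjusted p = 0.616).

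Psmf1 (chr2:151739425-151741676), an inhibitor of the core, was the least accessible gene per kilobase. It measured 27.3, 26.2 and 32.7 CPM in young and 22.4, 24.9, 23.3 and 13.9 CPM in aged libraries, all aged values being lower and the fourth much lower (log2 fold change -0.45 ± 0.18 SE, adjusted p = 0.149). Without aged replicate 4 the log2 fold change was -0.275 (adjusted p = 0.235). The 4 chaperones of core assembly, Psmg1 to Psmg4, had a median of 0.006. Psmg4 (chr13:34162602-34163638) was highest with 37.1, 33.1 and 39.1 CPM in young and 39.4, 47.7, 42.5 and 37.0 CPM in aged liver (0.19 ± 0.12 SE, adjusted p = 0.355). Psmg1 (chr16:95990149-95991801) was lowest with 31.6, 32.9 and 30.1 CPM and 28.9, 24.1, 26.1 and 28.6 CPM, without overlap (-0.22 ± 0.12 SE, adjusted p = 0.285). Psmc3ip, not a subunit, had a log2 fold change of -0.21 ± 0.14 (SE, adjusted p = 0.396).

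The log2 fold changes tended to be higher at genes whose region had a higher mean log2 CPM, a level not divided by the region's width. The 24 genes above 5.12 mean log2 CPM had a median change of 0.19 (log2), with 18 above 0, and the 23 below it had a median of -0.05, with 7 above 0. Across the 47 genes Spearman's rho between mean level and log2 fold change was 0.44. Genes share libraries and scaling and are not independent replicates, so this is a description. When promoter regions were divided into 10 equal bins by signal, the bins' median log2 fold change went from -0.43 at the lowest signal to 0.33 at the highest. The 8 members in bin 7 had a median of 0.20 and all lay above 0, against a median of 0.17 and 85.7% above 0 for its promoter regions. The 7 members in bin 4 had a median of -0.27, against -0.05. In bin 8, the 8 members had a median of -0.03 and 3 lay above 0, against 0.22 and 90.7% above 0 for its promoter regions, so members did not follow the bins throughout. The split of signs also depended on scaling. With library totals instead of TMM factors, the median over all regions moved from -0.04 to -0.15, and 19 genes lay above 0 and 28 below. With offsets fitted on mean abundance, 17 genes lay above 0 and 30 below. Relative to the median of all regions, the proteasome genes stood at 0.11 with TMM and at -0.07 with these offsets.

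**Figure D5:**
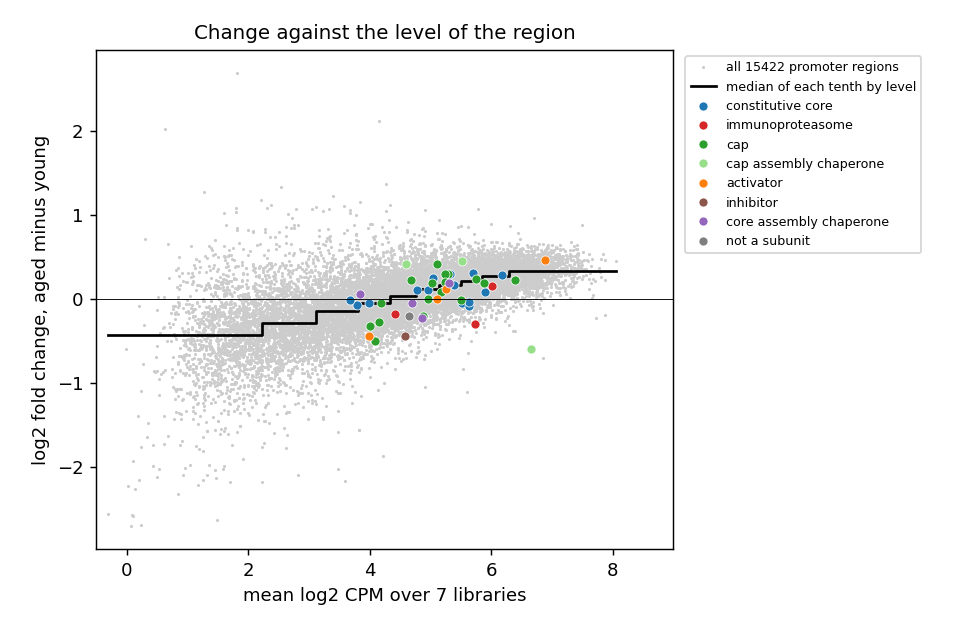
Log2 fold change (aged minus young) against mean log2 CPM for all 15422 promoter regions (grey) and the 47 proteasome genes (coloured by class). The stepped line gives the median of each of 10 equal bins of promoter regions by signal, from -0.43 to 0.33, and most members lie within the grey cloud around it, with Psmd9 far below it.

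Beyond the promoters, 27 regions lay within the annotated bodies of 9 genes, 12 of them in Psmd9, whose annotated span begins at the upstream non-coding start, and 10 of those 12 upstream of the principal start. A total of 1 region rose and 1 fell, against 1.66% and 3.78% of the regions outside promoter windows. Their median log2 fold change was -0.10, compared with -0.09 for regions outside promoter windows. The region that rose, in the Psmd9 span (chr5:123195073-123197450), has its middle 31929 bp upstream of the principal start. It measured 58.9, 62.4 and 59.5 CPM in young and 68.7, 82.6, 90.1 and 84.9 CPM in aged libraries (log2 fold change 0.43 ± 0.12 SE, adjusted p = 0.0443). The groups did not overlap, but the call was lost when any 1 of the 7 libraries was left out (adjusted p 0.0551 to 0.137). Over all 19 alternative fits it was lost in 14, with a log2 fold change as low as 0.157 and an adjusted p up to 0.507 with offsets fitted on mean abundance.

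The region that fell, in the body of Psmb1 (chr17:15485974-15486428), measured 3.70, 3.63 and 3.45 CPM in young and 0.703, 0.588, 0.934 and 0.764 CPM in aged libraries. The groups were far apart, 3.60 ± 0.13 (SD, n = 3) against 0.747 ± 0.144 (SD, n = 4), and accessibility fell by 2.27 on the log2 scale (SE 0.33, adjusted p = 0.00685). The aged values rest on few reads, since 1.15 CPM at the second region of Psmd13 were 9 reads in aged replicate 4. The call of the Psmb1 region held in all 19 alternative fits, with adjusted p up to 0.0382. Its middle lies 12097 bp from the start of Psmb1, and its sequence is part of a tandem repeat. At least 80% of the region aligned at an identity of at least 95% to 4 other places, all within 2045 bp of it. Reads from such copies cannot be assigned to 1 of them with certainty. The study's methods kept only aligned reads of high mapping quality. The effect of the copies and of this filter on the counts was not tested. The promoter region of Psmb1 itself, shared with Tbp, stood at a log2 fold change of -0.04 (adjusted p = 0.860).

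Genes that work with the proteasome were examined from lists chosen beside the subunits. Of 7 accessory subunits and assembly factors 0 were called (median 0.145). The lowest of them was Pomp, which matures the core, at -0.24 (adjusted p = 0.237). Among 11 deubiquitinases and shuttles, 2 rose, Vcp and Ufd1, and 0 fell (median 0.21). Vcp is an ATPase that extracts ubiquitinated proteins from complexes and membranes, with Ufd1 and Nploc4 as cofactors, and Nploc4 stood at a log2 fold change of -0.03 (adjusted p = 0.922). Vcp (chr4:42999519-43000923) went from 66.0 ± 5.31 (SD, n = 3) to 86.6 ± 4.43 CPM (SD, n = 4), with a log2 fold change of 0.39 ± 0.11 (SE, adjusted p = 0.0484). Ufd1 (chr16:18811304-18812786), whose region is shared with Cdc45, went from 36.7 ± 1.40 (SD, n = 3) to 49.96 ± 5.05 CPM (SD, n = 4), with a log2 fold change of 0.45 ± 0.12 (SE, adjusted p = 0.0402). At both, every aged library was above every young one. The call of Vcp was lost without any 1 of the 7 libraries (adjusted p 0.0527 to 0.180), and that of Ufd1 without any library but aged replicates 2 and 4 (adjusted p 0.0616 to 0.134). Over all 19 alternative fits, Vcp lost its call in 16 (highest adjusted p 0.653) and Ufd1 in 11 (highest adjusted p 0.258).

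Of the 6 ubiquitin and E1 genes 0 were called. All 6 were above 0 (median 0.27), against 61.1% of all promoter regions. In bins 7 to 10 by signal, where all but Uba1 lie, 85.7% to 97.9% of promoter regions were above 0. Of the 9 regulators of proteasome genes 0 were called (median 0.195). Nfe2l1, the activator of subunit genes, measured 86.9, 80.5 and 69.1 CPM in young and 105.7, 86.3, 121.4 and 123.7 CPM in aged libraries, overlapping at the second aged library (log2 fold change 0.47 ± 0.14 SE, adjusted p = 0.0583). It passed in 5 of 19 alternative fits (lowest adjusted p 0.0187), and stood at 0.149 with offsets fitted on mean abundance (adjusted p = 0.495). Among 13 antigen presentation and interferon genes 1 rose and 0 fell (median 0.18). It was Ifngr1, the receptor chain that binds interferon gamma (chr10:19591433-19592514), with 71.0, 76.2 and 67.7 CPM in young and 116.2, 99.2, 99.7 and 111.9 CPM in aged libraries (log2 fold change 0.58 ± 0.11 SE, adjusted p = 0.0142). Its groups were apart, and its adjusted p was 0.0566 without aged replicate 1, 0.0662 without young replicate 1 and 0.0514 without young replicate 2. With offsets fitted on mean abundance its call was lost as well, at 0.268 (adjusted p = 0.176). Tap2, next to Psmb8 and Psmb9 in the major histocompatibility complex, was the lowest of this list at -0.42 ± 0.16 (SE, adjusted p = 0.132), with all aged libraries below all young ones. Together 3 of the 46 genes on the 5 lists rose, 6.52%, and 0 fell, against 4.48% and 2.06% of promoter regions.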

How the data were processed

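ATAC-seq was performed on liver tissue by the Omni-ATAC protocol, and 7 libraries (3 young, 4 aged) were analysed. The deposited table holds raw read counts per consensus region. According to the methods of the study and the labels, the authors trimmed reads with cutadapt 1.13 and aligned them to GRCm38 with Bowtie2 2.4.1. They kept properly paired reads of high mapping quality and removed duplicates and mitochondrial reads. Peaks were called per library with MACS2 2.2.7, regions found in at least 2 libraries were kept, and reads were counted with featureCounts. Regions found in a single library are thus not measured, and 1 count is a read, without molecular identifiers.

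From these counts, all 55680 regions were fitted with edgeR 4.0.16 (quasi-likelihood test, TMM factors, age as the only factor, R 4.3.3) without a filter on low counts, and p-values were adjusted by Benjamini-Hochberg. CPM values use TMM-scaled library sizes, and log2 CPM a prior count of 2. Regions were assigned to genes where they lay within 200 bp of the TSS of any GENCODE M21 transcript. Copies of regions were sought with minimap2 2.31 on GRCm38. Pairs of subunits were compared by an exact permutation test (scipy 1.17.1). The fit was tested on simulated data, where it called 53.5% of 200 regions changed by 1 on the log2 scale. Of its 112 calls there, 4.46% were false. The members and lists were chosen with earlier results of these data known, and no test over the list was made. Named with values were all immunoproteasome genes and their counterparts, members passing the test, the highest and lowest log2 fold change of each role group, and gene body regions passing the test. Libraries held 4474652 to 25461110 reads in regions, and the 47 regions representing a gene 55 to 3549 reads each, where standard errors of log2 fold changes had a median of 0.13 and reached 0.21. A second region of Psmd13, with as few as 9 reads, had a standard error of 0.38. Alternatives were DESeq2 1.42.0, other scalings, a filter, each library left out, pairs of aged libraries summed, other start definitions and a stricter threshold. Among the scalings, offsets per library were taken from a loess curve (span 0.3) of each library's log2 CPM minus the region's mean over libraries, against the mean abundance or the GC content of the regions, in place of TMM factors.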

Additional observations from a re-analysis of the deposited data

Results flagged for a closer look

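In 59 comparisons of the 4 aged libraries, 3 held a library that stood apart by Dixon's criterion, which chance gives in about 1 group in 20. At Psmb10, aged replicate 2 measured 5.44 log2 CPM against 5.65 to 5.69 in the other aged libraries. At Psmb9, aged replicate 3 measured 6.31 log2 CPM against 5.96 to 6.02. The difference of Psmb8 minus Psmb5 was -0.315 in aged replicate 1 and 0.558 to 0.692 in the other aged libraries.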

How the results depend on the processing

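The members' calls were few, and their number depended on the settings. The number of genes that rose, 1 at the main settings, was 4 with DESeq2, 6 with offsets fitted on GC content, 2 with aged replicates 2 and 4 summed, and 0 with each of the other 5 pairs summed, with offsets fitted on mean abundance, with library totals, at starts of protein-coding transcripts, at principal starts and at a threshold of 0.01. The principal starts were chosen after seeing the data. The number that fell, 1, was 2 with offsets on mean abundance and with library totals, and 0 at protein-coding starts, principal starts and a threshold of 0.01. Leaving out 1 library gave 0 to 1 in each direction. Psmd5 lost its call in 12 of 19 alternative fits (highest adjusted p 0.350) and Psmd9 in 2 (highest adjusted p 0.0633). Psme2 gained a call in 3, Psmd4 and Psmd10 in 2 each, and Psmb10 (abundance offsets), Psmd2 (library totals), Psma5 and Psmb3 (both GC offsets) and the principal start of Psmd9 (library totals) in 1 each.

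The median log2 fold change over all members was -0.0582 with offsets on mean abundance and -0.0413 with library totals, and 0.0113 to 0.130 leaving out 1 library. For the constitutive core it was -0.0209 and -0.024 with these scalings, 0.016 with aged replicates 1 and 3 summed, and 0.0054 to 0.142 leaving out 1 library. For the cap it was -0.0662 with offsets on mean abundance, and 0.116 to 0.219 leaving out 1 library. For the immunoproteasome it ran from -0.316 to -0.0441 leaving out 1 library. The members' median lay below that of all promoter regions in 16 of 19 alternatives, by at most 0.07, and above it by at most 0.04 in the others.

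Signs turned at genes near 0. Psmb7 stood at 0.0233 with DESeq2, 0.0614 and 0.0113 with aged replicates 1 and 4 or 2 and 4 summed, 0.0632 with GC offsets, 0.0309 with abundance offsets and 0.135 with the replicate block. Psmb5 stood at 0.0353 with GC offsets, Psmb6 at -0.0273 with abundance offsets and -0.0125 with library totals, Psmb9 at -0.109 with abundance offsets and Psmb1 at 0.0699 with GC offsets. Psme1 stood at 0.0302 with DESeq2, 0.00719 and 0.0352 with aged replicates 1 and 2 or 1 and 3 summed and 0.0748 with GC offsets. With abundance offsets and library totals, Psme4 stood at -0.0582 and -0.00621, and the principal start of Psmd5 at -0.0166 and -0.0101. Leaving out 1 library moved Psmb7 between -0.164 and 0.155, Psmb5 between -0.174 and 0.0231, Psmb4 between -0.117 and 0.00393 and Psme1 between -0.105 and 0.162. It also moved the change of Psmb8 minus Psmb5 between -0.211 and 0.124, and that of Psmb9 minus Psmb6 between -0.0353 and 0.0995. The cause of these turns was not tested. Abundance offsets also moved Psma3 to 0.0785, Psmb3 to 0.00455, Psmc4 to 0.123, Vcp to 0.103, Ufd1 to 0.252, Ifngr1 to 0.268, Nfe2l1 to 0.149 and Apoa1 to 0.0737. A window of 1000 bp around the starts and a filter on low counts left the numbers of calls at 1 and 1. A prior count of 0.5, tried on the differences between paired subunits, reversed none of them.

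Same-numbered libraries of the age groups did not deviate together (correlations -0.119, 0.0565 and 0.0298), so numbers were not taken to pair them. With the replicate block, 1 member rose and 1 fell as without it, and 4078 regions were called over the whole table instead of 3198. That whole-table number was 4691 with DESeq2, 5622 with GC offsets and 853 with abundance offsets. With pairs of aged replicates summed, it ran from 962 (1 and 3) to 4742 (2 and 4), with 1806 for 2 and 3. It was 173 at a threshold of 0.01, and 188 (without young replicate 1) to 4230 (without aged replicate 4) leaving out 1 library. In the shallowest library, aged replicate 3, a region representing a gene held as few as 55 reads; without that library 651 regions were called, and the part of depth in the calls was not tested.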
